A study of Gallus gallus with 403 samples.

Results

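The genes described here encode the apolipoproteins APOA1, APOA2, APOA4, APOA5, APOB, APOC3 and APOH and the lipid-loading protein MTTP (microsomal triglyceride transfer protein) of the chicken, Gallus gallus. A probe set is a group of short probes on the array that together give 1 value. Probe sets were taken by the gene symbol of the platform annotation, and of several for a gene the one brightest on average over all arrays was used. Of the 8 genes, 7 were represented, by 16 probe sets in all, out of 13009 genes with a probe set of 1 gene symbol. APOC3, whose product slows the clearance of triglyceride-rich particles in mammals, had no probe set under its name and is not analysed here. APOB had 7 probe sets, APOA1, APOA4 and MTTP had 2 each, and APOA2, APOA5 and APOH had 1 each.

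RNA of 20 chicken tissues was hybridised to 403 Affymetrix Chicken Genome arrays in 101 groups of 1 tissue and 1 labelled age, of which 94 held 4 arrays, 5 held 3 and 2 held 6. Liver was labelled day 0, 1, 3, 7, 9, 49 and 56, whole intestine day 0 to 28, duodenum day 0 to 49, jejunum day 1 to 42, ileum day 28 and cecal epithelia day 14. Brain was labelled day 0 to 49, cerebral cortex day 7, pineal gland day 1 to 28 and retina day 1 to 35. Breast muscle (pectoralis) was labelled day 0 to 28, leg muscle (gastrocnemius) day 1 to 28 and abdominal fat day 1 to 49. Tibiotarsus growth plate and spleen were labelled day 1 to 28 and lung day 1 to 42. Ovarian cortex was labelled week 16, ovary week 17 and 2 years, testes week 17 and oocytes week 21. The labels name a sex for each array but no strain, diet or treatment, do not name the event that day 0 stands for, and number the replicates without saying that these were separate birds, so p-values measure only the spread between arrays.

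Lipoproteins are particles of lipid wrapped in apolipoproteins that carry fat and cholesterol through blood. In the endoplasmic reticulum of hepatocytes and enterocytes, MTTP loads lipid onto APOB, the large structural protein of each very low density particle. Smaller apolipoproteins exchange between particles. In birds, dietary fat leaves the gut mainly through the portal vein in large particles called portomicrons, and the newly hatched chick takes up lipid from its yolk sac. In the chicken, unlike mammals, APOA1 is made in many organs outside liver and gut.

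Values are log2 intensities as deposited. They are given as mean ± standard deviation (SD) over arrays, and differences as log2 ± standard error (SE), so that a difference of 1 is a fold change of 2. A gene was called where its adjusted p (limma, Benjamini-Hochberg over all genes of the comparison) was under 0.05 and its difference at least 1. Because a probe set's brightness depends on its probes, no gene's level was set against another's.

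Marker genes went against the tissue label, in part or in whole, in 7 groups that were set apart. Liver day 56 had a mean of hepatocyte markers of 6.36, against 12.71 to 13.08 in the other 6 liver groups. In brain day 1, 14 and 21 and a further set at day 7, the myelin gene MBP lay at 5.38 to 6.10. In the other 8 brain groups it lay at 10.26 to 12.88. Neuron markers of the 4 groups, at 8.86 to 9.04, were below the 10.75 to 11.19 of those 8. They were above the 7.92 to 8.22 of pineal gland, so only part of the markers went against the label. APOA1 averaged 5.88 in brain day 14. Pectoralis day 21 and a pectoralis group of unclear age had muscle markers of 10.49 and 10.79, against 13.08 to 13.83. Adipocyte markers were also low in abdominal fat at day 1, 7 and 10, at 7.14, 7.13 and 7.64. At the other fat ages they lay at 11.29 to 12.21. These early fat groups were not set apart and count in the tissue mean of fat. No comparison of ages or tissues reported here used the 7 groups set apart, and levels below are for the other groups. In liver day 56 APOA1 was at 6.00, 5.90 and 5.92 on its 3 arrays and APOB at 5.96, 6.05 and 5.98. Groups also differed in the bacterial control transcripts that are added during RNA preparation, whose mean of 12 probe sets ran from 4.83 to 9.51, and in the median SD over probe sets, which ran from 0.09 to 0.54. In 20 of 40 comparisons the groups were alike in both (within 1 log2 unit and under 2-fold in SD). A median of 1.05% of genes were called in these, with a range of 0% to 30.2%. In the other 20 the median was 14.0% and the range 0% to 32.4%. There a change with age or tissue and the difference in preparation or processing cannot be told apart. The like comparisons include all 11 that were added for their like controls, each between ages of 1 tissue. Other pairs of ages with like controls were computed but are not reported, so the 11 are a choice. The 2 medians therefore do not measure an effect of preparation.

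On the probe set used, APOB, the backbone of triglyceride-carrying particles, was high in liver and small intestine and low elsewhere. Its mean over group means was 12.15 in jejunum, 12.15 in liver, 11.69 in ileum, 11.58 in duodenum and 11.45 in whole intestine, and then dropped to 6.50 in gastrocnemius muscle and 4.91 in cecal epithelia. Among these 5 leading tissues the ranges of group means overlapped between neighbours except between liver and the single ileum group. No group mean of this probe set lay between 7.32 and 10.01. With all groups kept, it was higher in gut than outside liver and gut by 6.07, and in liver by 5.90. The other APOB probe sets gave smaller differences, of 0.73 to 4.33 for gut and 1.55 to 5.65 for liver. The third by mean read only 7.09 to 7.31 in duodenum from day 14 to 35. The split and the order of tissues thus hold for the probe set used. Lower levels in a whole organ can mean fewer cells that express a gene or less RNA per cell, and these cannot be told apart in bulk samples. MTTP showed the same split, with 10.68 in jejunum, 10.40 in whole intestine, 10.18 in ileum, 9.72 in liver and 8.97 in duodenum, and 4.69 to 6.00 in the 15 other tissues. In cecal epithelia, the hindgut lining, APOB was at the low end of the scale, with 5.32, 4.83, 4.81 and 4.67 on the 4 arrays. MTTP read 6.03, 6.02, 5.69 and 6.24 there, each above 5.53, the 25th percentile over the whole data set.

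APOA1, the main protein of high density lipoprotein, was the most widespread member. It was highest in jejunum at 14.12, duodenum at 13.87, whole intestine at 13.82 and liver at 13.78, whose ranges overlapped in turn. Unlike APOB it was also high in pineal gland (12.86), ovary (12.60), pectoralis (12.45), gastrocnemius (12.41), oocytes (12.36), brain (12.27), fat (11.55), testes (11.33), spleen (11.19) and lung (11.04). The growth plate lay lower at 8.61, and retina at 6.84 and cecal epithelia at 6.34 were lowest.

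APOA2, a smaller protein of the same particles, was a liver gene in these arrays. Its 6 liver groups lay between 13.12 and 13.73. No other group mean exceeded 9.92, the value of whole intestine at day 1, and the ranges of the tissues that followed gastrocnemius muscle (8.24) overlapped in turn down to ileum (5.78).

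APOA4, which rides on newly made intestinal particles, had the same 5 leading tissues as APOB. Mean levels were 13.42 in jejunum, 13.02 in duodenum, 13.02 in whole intestine, 12.59 in liver and 10.80 in ileum, against 6.03 to 7.52 elsewhere. APOA5, an activator of lipoprotein lipase made by the mammalian liver, was highest in liver at 9.71, followed by duodenum at 7.00, and lay between 5.53 and 6.52 in the other 18 tissues.

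APOH, also called beta-2-glycoprotein I, a plasma protein that binds anionic phospholipids, was highest in liver at 13.04 and next in brain at 9.95, testes at 9.71, cerebral cortex at 9.07, oocytes at 8.84 and gastrocnemius muscle at 8.25. In the gut it stayed near the low end of the scale, with 5.53 as the 25th percentile over the whole data set, with means of 5.58 in duodenum, 5.43 in whole intestine, 5.40 in jejunum and 5.24 in ileum. On the 4 arrays of duodenum at day 35 it read 5.69 each time. The gastrocnemius levels of APOH, APOA2 and APOB come from groups with hepatocyte markers of 7.66 to 8.56 and ALB (albumin) of 10.68 to 12.72. In oocytes these markers were at 6.04 and ALB at 10.63, and in cerebral cortex at 7.47 and 9.33. Whether hepatocyte transcripts contribute to these levels was not tested.

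**Figure D1:**
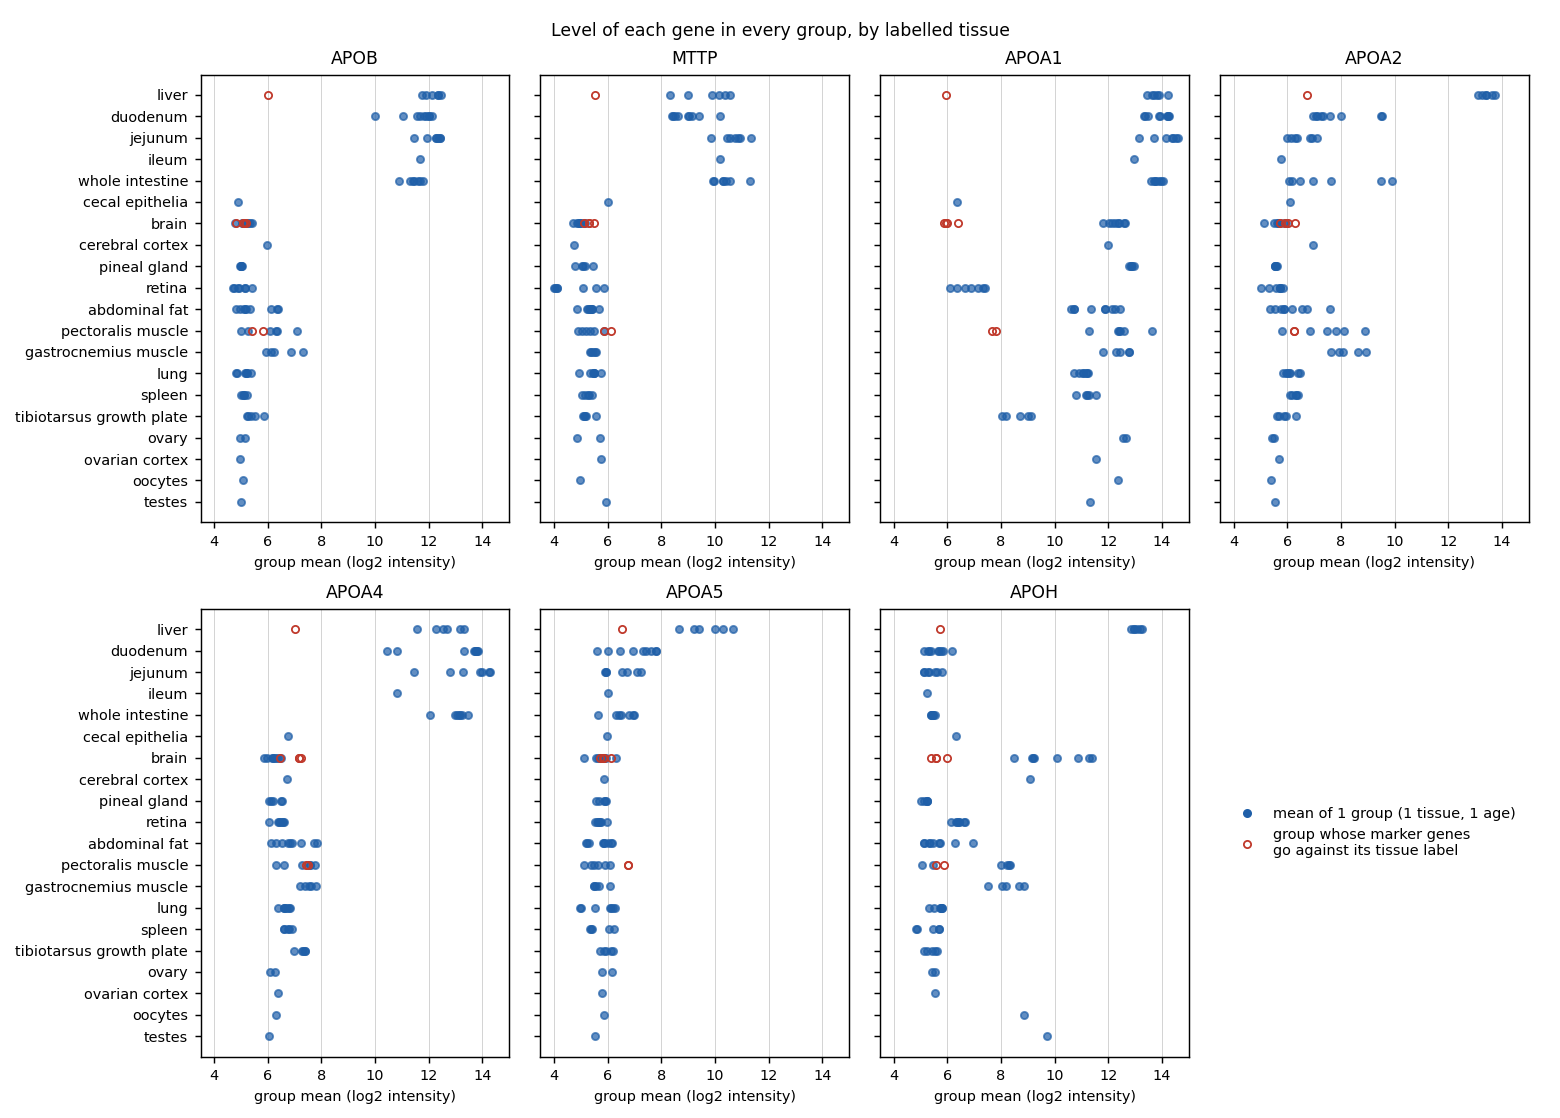
Each point is the mean log2 intensity of 1 group, by labelled tissue, with 1 panel per gene. Open red points are the 7 groups that were set apart because their markers went against the label. On the probe sets used, APOB, MTTP and APOA4 split liver and small intestine from all other tissues, and APOA2 and APOA5 set liver apart. APOH is raised in liver, brain, cortex, testes, oocytes and most muscle groups. APOA1 is low only in retina, cecal epithelia, growth plate and the open points.

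Liver and whole intestine were compared on the same days to ask which members differed between the organs that make particles. At day 0, 4 of 7 members were called, all higher in liver, while 19.7% of 12651 genes were called. APOH read 12.94, 13.55, 13.51 and 12.95 in liver and 5.56, 5.44, 5.27 and 5.21 in intestine, a difference of 7.87 ± 0.20 (adjusted p = 2.67e-29). Every liver array was thus far above every intestinal array.

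APOA5 was higher in liver by 4.36 ± 0.23 (adjusted p = 2.7e-19), APOA2 by 4.15 ± 0.28 (1.48e-15) and APOB by 1.26 ± 0.24 (4.61e-05), again with no overlap of arrays. Differences for APOA1 (0.21), APOA4 (0.22) and MTTP (-0.39) did not pass. At day 7 liver exceeded intestine for APOH by 7.61 ± 0.20, for APOA2 by 7.24 ± 0.28 and for APOA5 by 1.86 ± 0.23, and was lower for MTTP (-1.97 ± 0.26), 4 calls of 7 where 15.3% of genes were called. The adjusted p-values were 8.42e-29, 1.97e-23, 1.17e-08 and 8.73e-08.

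Against duodenum at day 7 the same members were called in liver in the same directions, 4 of 7 where 21.1% of genes were called, with APOH at 7.73 ± 0.20, APOA2 at 5.42 ± 0.28, APOA5 at 1.71 ± 0.23 and MTTP at -1.87 ± 0.26. All 3 organ comparisons joined groups that differed in control transcripts or SD.

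Within liver, APOA4 rose and APOA5 fell over the days 1, 3 and 9, groups whose control transcripts were alike at 6.02 to 6.05. APOA4 read 11.77, 10.86, 11.64 and 11.97 at day 1, 12.47, 12.80, 12.66 and 12.82 at day 3, and 13.41, 13.12, 13.11 and 13.09 at day 9. No array of a later age overlapped with an earlier one. From day 1 to 9 the rise was 1.62 ± 0.22, a 3.08-fold change (adjusted p = 4.69e-06).

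From day 1 to 3 APOA4 rose by 1.13 ± 0.22 (adjusted p = 0.00139), which without replicate 2 became 0.86 (adjusted p = 0.038) and so missed the size limit. It was the only member called in that step, 1 of 7 where 1.99% of genes were called. The other APOA4 probe set moved by 1.70 from day 1 to 9.

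APOA5 read 10.18, 9.78, 10.65 and 10.55 at day 1 and 9.25, 8.99, 9.63 and 8.97 at day 9. The groups did not overlap, and the fall of 1.08 ± 0.24 on the log2 scale was called (adjusted p = 0.00326), as 1 of 2 calls among 7 members where 3.4% of genes were called. Without replicate 4 it was -0.91 (adjusted p = 0.0594), and with quantile normalization -0.98 (adjusted p = 0.00752), both short of a call. APOA1 (0.24), APOA2 (-0.13), APOB (-0.13), APOH (-0.00) and MTTP (0.43) were not called over the same days.

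Other liver ages differed in control transcripts, at 5.38 on day 0, 9.13 on day 7 and 8.05 on day 49, or in SD. APOA5 was 10.69 ± 0.28 at day 0, 9.39 ± 0.37 at day 3, 8.65 ± 0.57 at day 7 and 10.02 ± 0.21 at day 49. Its difference of day 7 from day 0 was -2.04 ± 0.24 (adjusted p = 1.18e-07) and that of day 3 from day 0 -1.29 ± 0.24 (adjusted p = 0.000219). In these comparisons 2 of 7 members were called where 12.7% of genes were, and 1 of 7 where 7.99% were.

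MTTP read 9.90, 10.32, 9.21 and 10.16 at day 0, 8.08, 8.64, 8.52 and 8.07 at day 7, and 10.42, 11.00, 10.54 and 10.36 at day 9. Day 7 thus lay below day 0 and day 9 on every array, with a difference of -1.57 ± 0.24 against day 0 (adjusted p = 7.33e-06). Day 9 lay above day 7 by 2.25 ± 0.24 (1.93e-08), the single call of 7 where 9.85% of genes were called. At day 49 MTTP was lower than at day 9 (-1.59 ± 0.24, adjusted p = 8.02e-06), again 1 of 7, where 10.6% were called. Leukocyte markers moved with this, at 9.48 on day 7 and 9.32 on day 49 against 6.68 to 7.19 at the other ages, as did the control transcripts, and their part in the result was not tested.

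**Figure D2:**
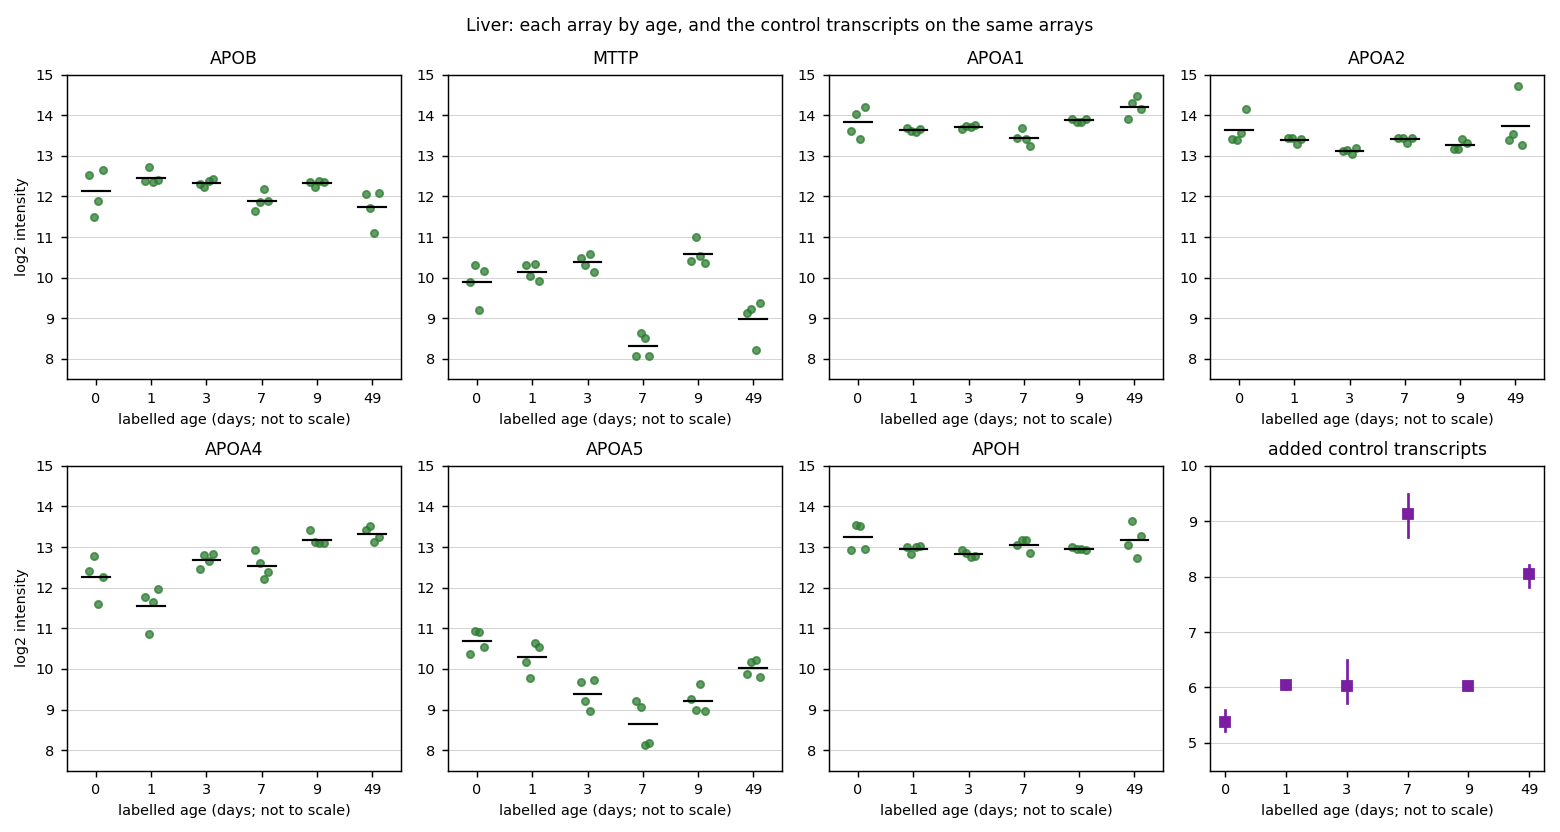
Log2 intensity of each liver array (points) with the group mean (bar) at the 6 ages whose markers fitted liver; the last panel shows the mean of 12 added control probe sets (square) with the range over arrays (line). APOA1, APOA2 and APOH stay within about the same band, APOA4 climbs from day 1 to 9, APOA5 declines to day 7, and MTTP is low at day 7 and 49, where the control transcripts are high.

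APOB gave a further value for judging those ages, because its 7 probe sets did not move together. The probe set used, with the highest mean, changed from day 0 to 7 by -0.24, while 4 of the 7 were lower by 1 or more and the largest difference was -5.13. That probe set, which ranked 5 by mean, stood at 12.06 on day 0, 11.51 on day 3, 6.93 on day 7, 11.77 on day 9 and 8.57 on day 49. With all probe sets averaged in place of the brightest, APOB was called at day 7 against day 0 (-1.90, adjusted p = 8.87e-09), day 9 against 7 (1.69, 8.32e-08) and day 49 against 9 (-1.32, 4.36e-06).

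The duodenum showed the same split between probe sets. There the fifth probe set was at 9.13 at day 0 and 10.68 at day 7 but 4.51 to 4.58 from day 14 to 35, while the probe set used stood at 11.05, 11.55 and 11.83 to 12.13. Direction of APOB in duodenum after day 7 thus depended on the probe set, and MTTP, with both its probe sets lower, was 10.20 at day 7 and 8.43 to 9.15 from day 14 to 35. Duodenum control transcripts were 5.30 at day 7 and 6.90 to 7.36 from day 14 to 35, so that the change cannot be told apart from that of the preparation.

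**Figure D3:**
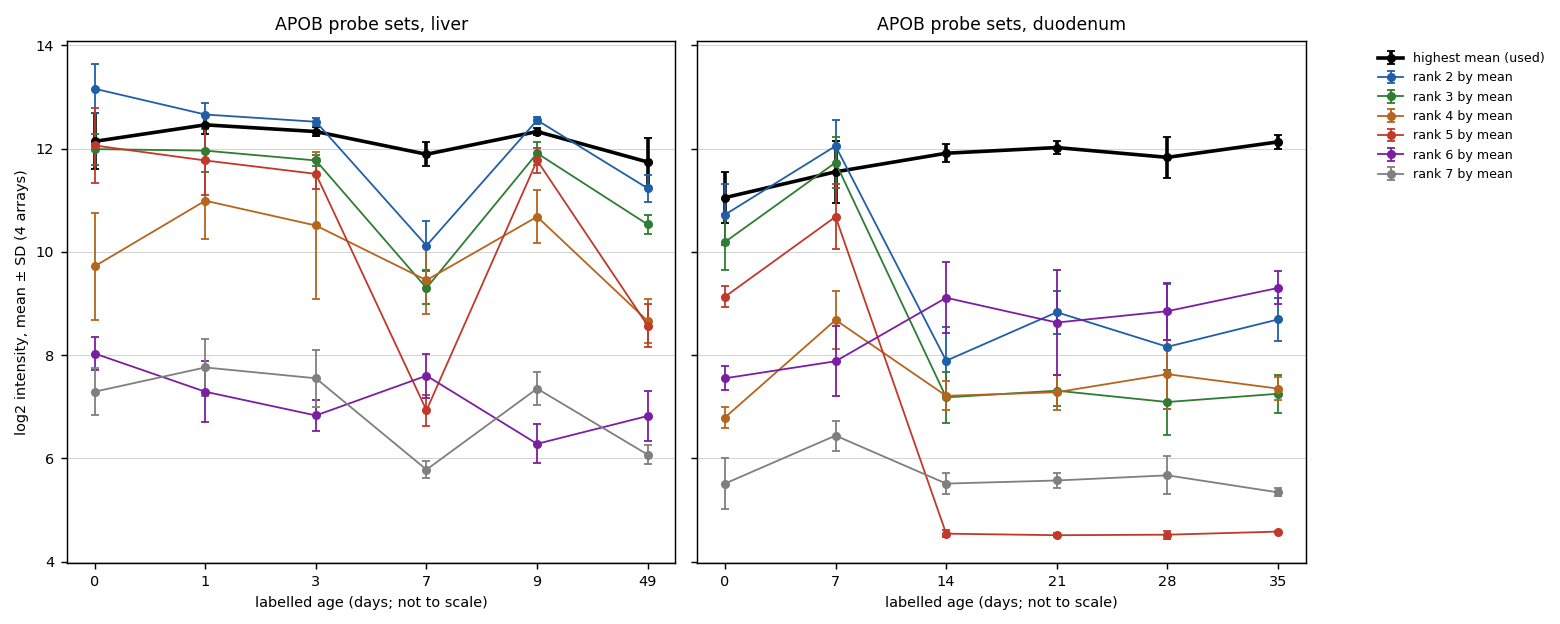
Mean ± SD log2 intensity (4 arrays) of the 7 APOB probe sets by labelled age in liver and duodenum, ranked by mean over all arrays, with the probe set used in black. Several probe sets drop at liver day 7 and 49 and from duodenum day 14 on, while the black line stays between 11.05 and 12.46 at the ages plotted (liver day 0 to 49, duodenum day 0, 7, 14, 21, 28 and 35).

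In the gut, APOA4 rose and APOA2 fell between day 0 and 7, and in whole intestine the fall of APOA2 came after day 1. The clearest course was in whole intestine, where the groups from day 0 to 14 had like control transcripts (5.21 to 5.28) and a median SD of 0.10. APOA2 read 9.73, 9.42, 9.72 and 9.04 at day 0, 9.89, 9.37, 10.32 and 10.10 at day 1, 6.92, 7.84, 8.78 and 6.93 at day 3, 6.11, 6.07, 6.29 and 6.18 at day 7, and 6.02, 6.05, 6.10 and 6.02 at day 14. The arrays of day 0 and 1 all lay above those of day 3, which spread widely, and those in turn above day 7.

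From day 0 to 7 APOA2 fell by 3.32 ± 0.29 on the log2 scale, 9.95-fold (adjusted p = 6.16e-08). The step from day 1 to 3 was -2.30 ± 0.29 (2.2e-05) and that from day 3 to 7 -1.46 ± 0.29 (0.00519). Without replicate 2 the later step was -1.35 (adjusted p = 0.0724), and with only the groups compared -1.45 (0.0594), so that this step alone was not called under these settings. The hepatocyte markers of whole intestine were 6.01 at day 0 and 6.10 at day 7, and ALB (albumin) 6.45 and 7.17, against 14.61 or more in liver.

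APOA4 in whole intestine read 12.19, 12.22, 11.84 and 11.91 at day 0, 12.88, 13.48, 13.20 and 12.73 at day 1, and 13.01, 12.93, 13.46 and 13.31 at day 7. All arrays after day 0 were above those of day 0. The rise from day 0 to 7 was 1.14 ± 0.15 (adjusted p = 9.9e-06) and that from day 0 to 1 was 1.03 ± 0.15 (6.11e-05), close to the size limit. Without replicate 3 these became 0.98 (adjusted p = 0.000819) and 0.92 (0.00219), and without replicate 2 the step from day 0 to 1 was 0.96 (0.000628), under the limit each time.

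Over all members of whole intestine, 2 of 6 were called from day 0 to 7 where 2.6% of genes were, 1 of 6 from day 0 to 1 (0.707%), 1 of 6 from day 1 to 3 (1.22%), 1 of 6 from day 3 to 7 (0.32%) and 0 of 6 from day 7 to 14 (0.0337%). APOB moved by 0.56 from day 0 to 7, APOA1 by 0.13 and MTTP by 0.01, none of them called. Leukocyte markers rose over these days, 6 of 8 called with a median of 1.81, and the enterocyte markers had 1 of 10 called with a median of 0.57.

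In duodenum, also with like control transcripts (5.27 and 5.30), APOA4 read 10.54, 9.47, 10.86 and 10.91 at day 0 and 13.20, 13.29, 14.05 and 12.69 at day 7. The groups were far apart, and the rise was 2.86 ± 0.26, 7.27-fold (adjusted p = 5.05e-08). APOA2 read 9.24, 9.10, 9.63 and 10.10 at day 0 and 7.63, 7.70, 8.95 and 7.68 at day 7, so that the groups did not overlap although 1 array of day 7 came near. Its change was -1.53 ± 0.28 (adjusted p = 0.000389), and with array weights -1.69 (0.0854), no longer called. Over all probe sets, some of these arrays correlated better with a whole intestine array than with any fellow array. They were replicate 1 of day 0 (0.9495 against 0.8899) and replicates 1 and 3 of day 7 (0.9479 and 0.8781, each against 0.8618).

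MTTP rose by 1.17 ± 0.30 from 9.03 ± 0.82 to 10.20 ± 0.50 (adjusted p = 0.00614), with arrays that overlapped, and it was not called with array weights (1.02, adjusted p = 0.271) or with only the groups compared (1.17, 0.156). These were 3 of 7 members, where 10.6% of genes were called. Median SD over probe sets was 0.46 at day 0 and 0.49 at day 7. It was 0.14 to 0.16 from day 14 to 35, ages that shared the fit, so p-values here may be too small. Without replicate 1 APOA5 was called as well (1.04, adjusted p = 0.0374), and with all probe sets averaged APOB was (1.15, 0.000679). Leukocyte markers moved from 7.05 to 8.31, 5 of 8 called higher. Exocrine pancreas markers stood at 10.68 at day 0 and 9.13 at day 7 in duodenum, against 6.26 and 6.75 in whole intestine, none of 8 called, and their part in the result was not tested.

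Between day 14 and 35, with like control transcripts, 0 of 7 members were called in duodenum, where limma called 0% of 12662 genes and 179 had an unadjusted p under 0.05. APOA4 stayed at 13.69 to 13.80 and APOA2 at 7.10 to 7.61 over the 4 ages. Day 35 against day 7 gave MTTP alone, at -1.58 ± 0.30 (adjusted p = 0.000223), 1 of 7 where 17.7% of genes were called, and without replicate 1 or 2 APOA2 was called too (-1.03, 0.0366, and -1.14, 0.012). Between these ages the exocrine pancreas markers of duodenum went from 9.13 to 5.89 and the leukocyte markers from 8.31 to 9.46, and their part in the result was not tested. In jejunum, 0 of 6 members were called from day 14 to 21 (0.0424% of genes), 0 of 6 from day 14 to 28 (7.68%) and 0 of 7 from day 1 to 42 (4.93%). From day 1 to 42 APOA4 had 1.19 ± 0.40 (adjusted p = 0.0772) and was called with trend and robust moderation (0.0178). The comparisons of day 28 with 14 and of day 42 with 1 joined groups of unlike control transcripts.

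Jejunum APOA4 was lowest at day 35, at 11.46, against group means of 12.80 to 14.27 at the 6 other ages. Between day 35 and 42 it read 11.64, 11.86, 11.03 and 11.31 and then 14.39, 13.73, 13.61 and 14.24. The groups did not overlap, with a rise of 2.53 ± 0.40 (adjusted p = 4.39e-05), 1 of 7 members where 1.74% of genes were called. APOA1 (1.02 ± 0.37, adjusted p = 0.188), MTTP (1.01 ± 0.40, 0.262) and APOB (0.96 ± 0.39, 0.267) missed the threshold. With all probe sets averaged these became 1.29 (0.0027), 1.89 (0.00452) and 2.09 (8.51e-05), all called, and APOA1 was also called with trend and robust moderation (1.02, 0.0298). Enterocyte markers were 11.24 at day 35 and 12.18 at day 42, with 3 of 10 called higher. The 4 arrays of day 35 correlated with their closest fellow array at 0.878 and with an ileum array at 0.873 to 0.875.

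**Figure D4:**
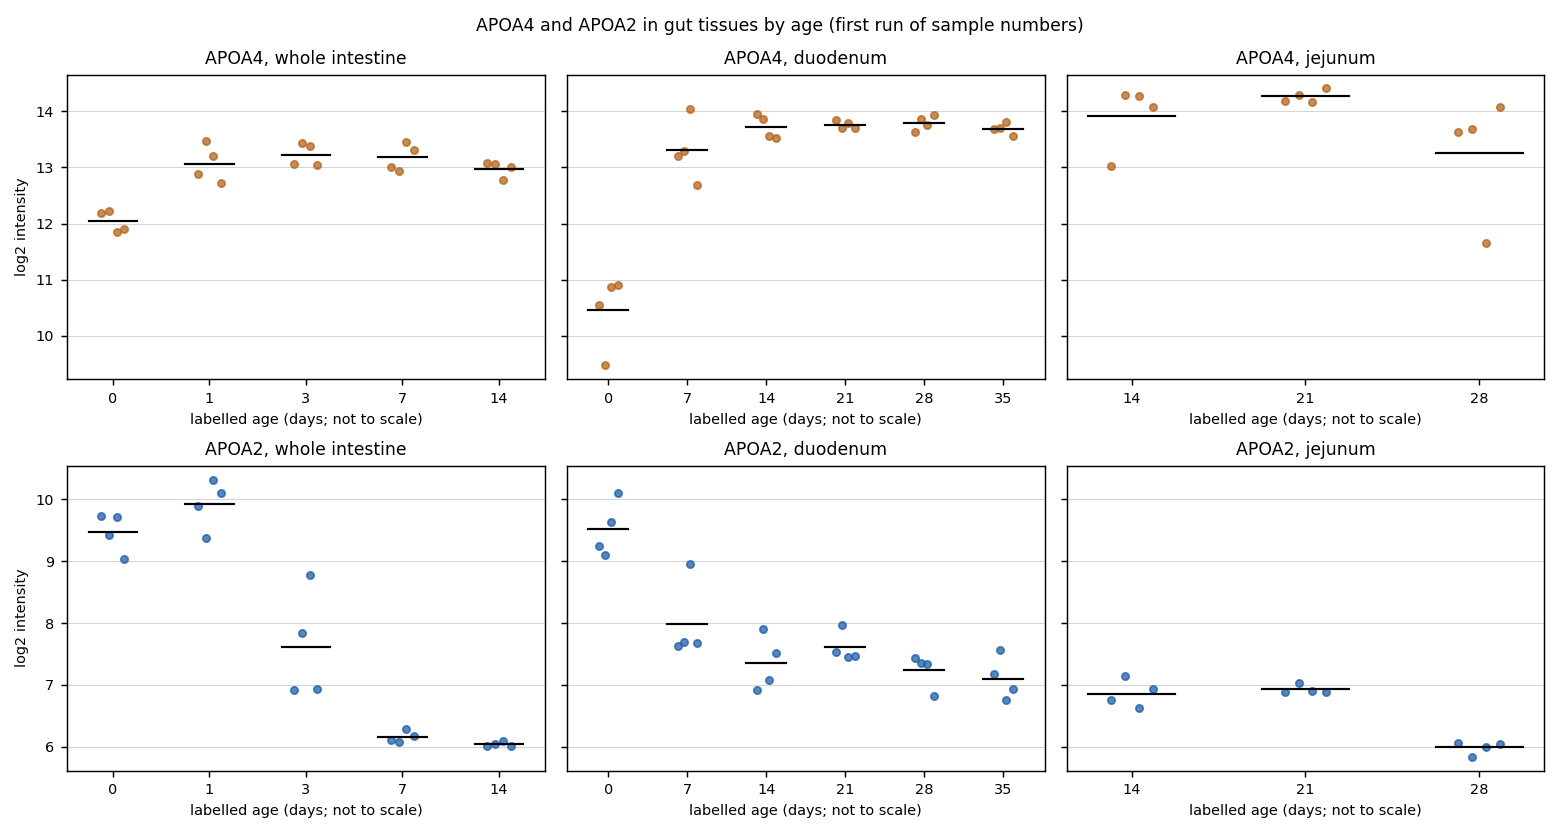
Log2 intensity of each array (points) and the group mean (bar) for APOA4 (upper row) and APOA2 (lower row) in whole intestine, duodenum and jejunum by labelled age. APOA4 steps up after day 0 in whole intestine and between day 0 and 7 in duodenum. APOA2 comes down after day 1 in whole intestine and between day 0 and 7 in duodenum. Both stay level from day 14 on in duodenum. Duodenum day 1, of the second run, is not plotted and had APOA4 at 10.82 ± 0.03.

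Along the gut, the largest contrast was between cecal epithelia and jejunum at day 14. APOA1 read 6.70, 6.42, 6.20 and 6.04 in cecal epithelia and 14.46, 14.59, 14.61 and 14.37 in jejunum, a difference of -8.17 ± 0.13 (adjusted p = 2.73e-16). APOB differed by -7.36 ± 0.18 (1.42e-13), APOA4 by -7.18 ± 0.23 (3.43e-12) and MTTP by -4.75 ± 0.20 (3.81e-11). These were the 4 of 7 members called, where 32.4% of genes were called. Enterocyte markers were at 7.56 in cecal epithelia and 12.46 in jejunum, 9 of 10 called lower, with RBP2 at 5.56 and FABP2 at 5.61, and 4 of 8 leukocyte markers were called higher. The mean of these markers was 11.06, 10.88, 10.72 and 8.07 on the 4 cecal arrays, so that replicate 4 lay below the 8.78 to 9.64 of jejunum. Control transcripts stood at 9.46 and 5.41.

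Between duodenum and jejunum, MTTP was lower in duodenum at day 14 (-2.32 ± 0.20, adjusted p = 9.94e-08), the single call of 7 where 26% of genes were called, and without replicate 4 APOA5 was called as well (1.06, 0.000751). At day 28 MTTP was again lower (-1.45 ± 0.25, 0.000204), while APOA2 was higher by 1.25 ± 0.14 (5.29e-06) and APOA5 by 1.30 ± 0.32 (0.00317, with overlapping arrays), 3 of 7 where 23.7% were called. At day 28 ALB read 6.72, 9.60, 6.57 and 8.32 in duodenum and 6.49 to 6.95 in jejunum, and at day 14 it read 9.74, 11.76, 6.59 and 6.89 in duodenum and 6.62 to 6.96 in jejunum. The part of hepatocyte transcripts in the result was not tested, and both comparisons joined groups of unlike control transcripts or SD. With all probe sets averaged, APOB was also called lower in duodenum, by -1.68 at day 14 (adjusted p = 2.76e-07) and -2.11 at day 28 (0.0039). Its single probe sets differed from -4.87 to 1.42 at day 14, with -0.36 for the one used.

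Ileum and jejunum at day 28 had like control transcripts (8.41 and 8.16) and median SD (0.12 and 0.13). APOA4 read 11.76, 11.62, 9.33 and 10.49 in ileum and 13.64, 13.69, 11.66 and 14.07 in jejunum, and replicate 3 was the lowest array of both. Over all probe sets these 2 arrays correlated with each other at 0.994, closer than with any array of their own groups (0.983 in ileum, 0.973 in jejunum). The difference of -2.46 ± 0.55 was not called (adjusted p = 0.367), 0 of 7 members being called where limma called 0% of 12375 genes and 1038 had an unadjusted p under 0.05. Without replicate 3 it was -2.51 (adjusted p = 0.00362), a call.

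Liver and whole intestine changed differently from day 0 to 7 for 3 of 7 members in a direct test, where 9.75% of genes were called. The change in liver minus that in intestine was 3.09 ± 0.40 for APOA2 (adjusted p = 5.38e-07), which fell in intestine and was not called in liver, -2.50 ± 0.32 for APOA5 (4.51e-07) and -1.58 ± 0.37 for MTTP (0.0031). With all probe sets averaged APOB was called too (-2.20, 7.76e-07). Only liver spanned unlike control transcripts, and its leukocyte markers went from 7.03 to 9.48 while those of intestine went from 6.89 to 8.61; their part in the result was not tested.

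In the nervous system APOA1 and APOH followed different maps. At day 9 APOA1 read 11.82, 11.71, 12.44 and 12.51 in brain and 6.29, 6.49, 5.83 and 5.83 in retina, a difference of -6.01 ± 0.22 (adjusted p = 8.45e-16). APOH read 11.18, 11.80, 10.96 and 11.57 in brain and 5.88, 5.74, 5.72 and 7.22 in retina, a difference of -5.24 ± 0.41 (3.63e-10). Retina was thus low for both genes on every array, 2 of 6 members called where 18% of genes were called.

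Pineal gland, a light-sensing outgrowth of the brain in birds, was high for APOA1 and low for APOH. At day 7 APOH read 5.46, 5.12, 5.27 and 5.10 in pineal gland and 11.11, 11.73, 10.79 and 11.41 in brain, a difference of -6.02 ± 0.41, 65-fold (adjusted p = 2.25e-11). APOA1 was 12.77 ± 0.15 against 11.81 ± 0.28 in brain, a difference of 0.97 ± 0.22 (adjusted p = 0.000969) that missed the size limit and passed it without replicate 1 (1.03) or 2 (1.09). APOH was the single call of 6 members, where 21.7% of genes were called.

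Cerebral cortex at day 7 had less APOH than whole brain, with 8.21, 7.92, 9.72 and 10.42, a difference of -2.19 ± 0.41 (adjusted p = 0.000413), 1 of 6 where 9.3% of genes were called. The 2 higher arrays do not reach the lowest brain array. Replicate 4 of cortex had hepatocyte markers at 10.29 and ALB at 13.93, and on it APOA2 read 10.60 and APOB 8.78, against 5.33 to 6.49 and 4.90 to 5.18 on the other 3 arrays. Replicate 2 had hepatocyte markers at 7.28 and ALB at 9.88, against 6.14 to 6.19 and 6.66 to 6.84 on replicates 1 and 3. The part of hepatocyte transcripts in the cortex levels was not tested. All these comparisons between parts of the nervous system joined groups of unlike control transcripts or SD.

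By age, brain APOH read 9.70, 9.93, 10.48 and 10.17 at day 0 and stood at 11.26 ± 0.40 at day 7, 10.85 ± 0.38 at day 8 and 11.38 ± 0.38 at day 9, groups with like control transcripts. The rise from day 0 to 9 of 1.31 ± 0.31 was called (adjusted p = 0.0103), with no overlap of arrays, 1 of 5 members where 2.05% of genes were called. It was not called with array weights (1.34, adjusted p = 0.817), with only the groups compared (1.31, 0.19) or without replicate 2 (1.12, 0.0848). Median SD over probe sets was 0.43 at day 0 and 0.40 at day 9, against 0.10 to 0.13 from day 21 to 42 in the same fit. Of the hepatocyte markers in brain, 1 of 10 was called over these days, with a median of 0.12. Over all probe sets, replicate 1 of day 0 and of day 9 correlated better with a cerebral cortex array than with any fellow array. The values were 0.9517 against 0.9122 at day 0 and 0.9633 against 0.9219 at day 9.

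From day 28 to 42 brain APOH was lower, at 9.17 to 9.22, with 1 array of day 28 at 10.74. Control transcripts stood at 6.72 to 7.07 at these ages and at 5.22 to 5.26 from day 0 to 9. Age and preparation therefore cannot be told apart in this difference. Between day 28 and 42, with like control transcripts, 0 of 5 members were called, where limma called 0% of 12613 genes and 153 had an unadjusted p under 0.05. Day 42 against day 0, of unlike control transcripts, also gave 0 of 5 (10.4% of genes). Without replicate 4 APOH was called there at -1.06 (adjusted p = 0.0391). Brain APOA1 lay between 11.81 and 12.63 at all 8 ages. In retina 0 of 5 members were called from day 14 to 35 (0.215%) or, with unlike control transcripts, from day 9 to 35 (30.8%).

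**Figure D5:**
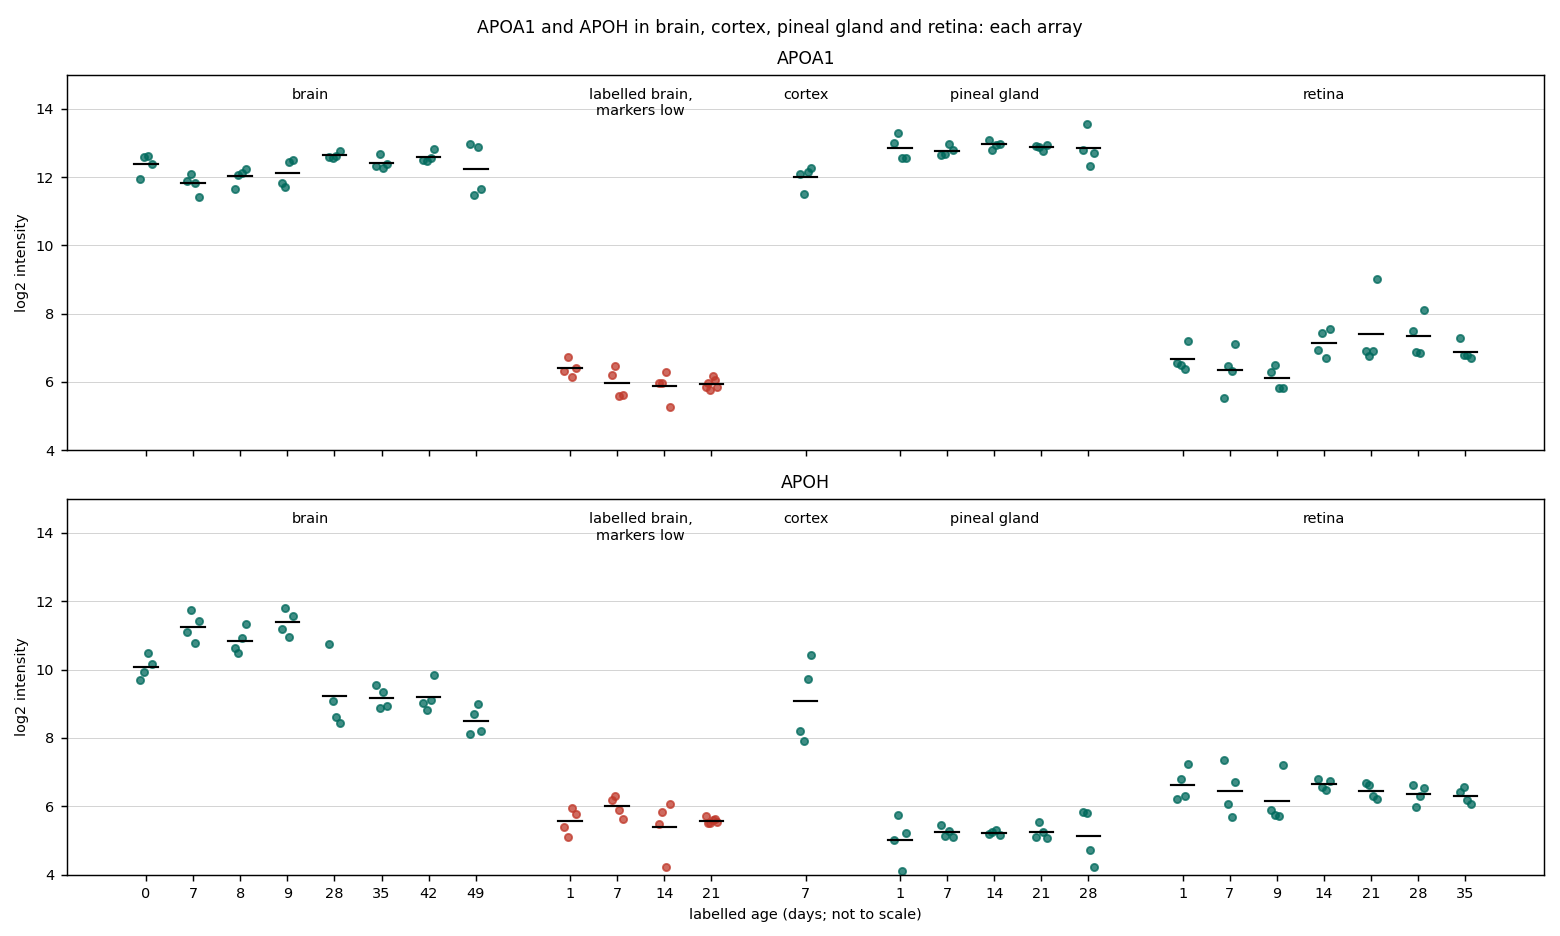
Log2 intensity of APOA1 (top) and APOH (bottom) on each array (points) with the group mean (bar) in brain, cerebral cortex, pineal gland and retina by labelled age; red points are the 4 groups labelled brain whose myelin and astrocyte genes were low. APOA1 is high in brain and pineal gland and low in retina, while APOH is high in brain and cortex and low in pineal gland and retina.

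In pectoralis muscle APOA1 read 13.29, 13.75, 13.79 and 13.60 at day 0 and 10.97, 11.18, 11.30 and 11.69 at day 7. The groups, of like control transcripts, did not overlap, and APOA1 fell by 2.32 ± 0.49 on the log2 scale (adjusted p = 0.00367), 1 of 6 members where 5.12% of genes were called. With quantile normalization the difference was -2.64 (adjusted p = 0.054), not called. Over all probe sets, replicate 1 of each group correlated better with a gastrocnemius array than with any fellow array. The values were 0.9417 against 0.9069 at day 0 and 0.9289 against 0.9056 at day 7.

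Muscle groups of the second run, and all gastrocnemius groups, had raised levels of hepatocyte markers beside those of APOA2, APOB and APOH. In pectoralis at day 1, hepatocyte markers averaged 8.57 and ALB 12.38, with APOA2 at 8.90 and APOH at 8.34, whereas at day 0 the same values were 6.02, 6.53, 5.80 and 5.04. The control transcripts of these groups stood at 8.84 at day 1 and 5.35 at day 0, so age and preparation cannot be told apart. Abdominal fat showed a like difference in ALB and APOA2 within a group. On replicates 1 and 3 of day 14, ALB read 14.07 and 13.89 and APOA2 9.60 and 8.33, while on replicates 2 and 4 ALB read 7.11 and 7.58 and APOA2 6.46 and 6.00. The part of hepatocyte transcripts in the levels of APOA2, APOB and APOH outside liver was not tested.

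In fat at day 49 against day 10, 0 of 6 members were called where 30.2% of genes were. APOA2, APOA4, APOB and APOH differed by 1.08 to 1.19 but did not pass the adjusted p. At any size of difference, 8104 of 12573 genes passed it. At day 49 ALB read 12.09 and 13.31 on replicates 2 and 3 and 6.45 and 6.54 on replicates 1 and 4, against 6.43 to 6.91 at day 10. Without replicate 1, APOA2, APOA4 and APOH were called (1.58, 1.22 and 1.46, adjusted p 0.0464, 0.0243 and 0.0384). Without replicate 4, APOA1 was called (1.08, 0.0354) and these 3 were not. With no array left out, the same 3 were called with array weights (1.32, 1.12 and 1.28, adjusted p 0.038, 0.0208 and 0.0209). They were also called with only the groups compared (1.19, 1.08 and 1.16, adjusted p 0.0481, 0.0246 and 0.0297). Adipocyte markers stood at 7.64 at day 10 and 12.21 at day 49. The part of hepatocyte transcripts and of this difference in adipocyte markers in the results was not tested.

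Among gonads at week 17, APOH read 9.46, 10.35 and 9.32 in testes and 5.70, 5.94 and 4.98 in ovary (n = 3 each). The arrays were far apart, with APOH higher in testes by 4.17 ± 0.33, 18-fold (adjusted p = 1.2e-09). APOA1 read 11.31, 11.19 and 11.49 in testes and 12.22, 12.99 and 12.79 in ovary, lower in testes (-1.34 ± 0.33, 0.00229), and with array weights this was -1.26 (0.112). These were 2 of 6 members where 29.1% of genes were called, in groups of like control transcripts.

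Oocytes, at 8.71, 9.13, 8.94 and 8.59 for APOH, lay above all ovary arrays. No member was called in lung from day 7 to 28 (0 of 5), where limma called 0% of 11861 genes and 438 had an unadjusted p under 0.05, in spleen from day 1 to 14 (0 of 5, 0.873%) or in the growth plate from day 1 to 21 (0 of 5), where limma called 0% of 12107 genes and 2163 had an unadjusted p under 0.05.

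No member was called by labelled sex. Over 94 somatic groups with both sexes (189 female and 189 male arrays), female minus male lay between -0.03 for APOH and 0.05 for APOA2, and limma called 0 of 13006 genes, while 1407 had an unadjusted p under 0.05. HINTW, a gene of the female W chromosome, differed by -0.13 ± 0.16, so that the labelled sex was not borne out by the arrays and these differences say nothing firm about sex. These groups include 5 of the 7 that were set apart because their markers went against the tissue label. In the 6 liver groups alone limma called 0 of 12538 genes, and 746 had an unadjusted p under 0.05.

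The members fell into sets by how alike their group means were. Over 101 groups, Pearson's r was 0.98 between APOA4 and APOB, 0.957 between APOB and MTTP and 0.946 between APOA4 and MTTP, and within each run of sample numbers these 3 values were at least 0.941. APOA2 and APOA5 had 0.766, but 0.877 in the first run, which holds all liver groups, and 0.042 in the second, which holds none. APOH went least with APOA4 (0.048) and MTTP (0.043). Groups share tissues and arrays share runs, so these values are descriptions.

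In the chicken gene table (RefSeq, assembly bGalGal1.mat.broiler.GRCg7b), APOA5, APOA4, APOC3 and APOA1 are neighbours in this order, between ZPR1 and SIK3. Over the 101 groups r was 0.634 for the adjacent APOA5 and APOA4, 0.594 for APOA4 and APOA1 and 0.35 for APOA5 and APOA1. All 3 values were below that of APOA4 with APOB, which lies elsewhere.

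Outside the 8 genes, those most like APOB over 101 groups were TM4SF4 (r = 0.983), CYP3A5 (0.978) and CYP2C23a (0.977). For APOA4 they were the antimicrobial peptide gene LEAP2 (0.98), CYP2C23a (0.977) and CREB3L3 (0.974), and for MTTP HSD11B1B (0.961), CREB3L3 (0.957) and the fatty acid carrier FABP1 (0.956). APOA2 was most like the vitamin D carrier gene GC (0.937), SPIA1 (0.921) and plasminogen, PLG (0.897). For APOH they were angiotensinogen, AGT (0.871), ITIH2 (0.803) and the lectin MBL2 (0.798), and for APOA5 prothrombin, F2 (0.903), AOC3 (0.886) and FTCD (0.877), of which F2 and ITIH2 are among the hepatocyte markers. Over the 38 groups of the second run, which hold no liver, these values were 0.597 for AGT, 0.62 for ITIH2 and 0.821 for MBL2 with APOH, and 0.552 for F2, 0.528 for AOC3 and 0.355 for FTCD with APOA5. APOA1 had weaker partners in the mitochondrial enzyme HADHB (0.771), STOM (0.753) and ACAD9 (0.753).

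Other genes of lipoprotein handling were followed beside the members. In liver from day 1 to 9, of 9 genes for lipases and plasma remodelling 2 rose and 4 fell, with a median difference of -0.08 against -0.01 over all 12778 genes, of which 3.4% were called. Lipoprotein lipase, LPL, which frees fatty acids from particles, fell by 2.53 ± 0.28 on the log2 scale (adjusted p = 1.81e-07) and hepatic lipase, LIPC, fell by 1.74 ± 0.31 (0.000301). The lipase inhibitor ANGPTL4 rose by 1.82 ± 0.33 (0.000299) and endothelial lipase, LIPG, by 1.71 ± 0.28 (0.000109).

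The sterol transporters ABCG5 and ABCG8, which work as a pair, fell by 1.60 ± 0.31 and 1.67 ± 0.26 in the same livers (0.000695 and 3.75e-05), 2 of 4 genes of cholesterol efflux, whose median was -0.90. SREBF2, a regulator of sterol synthesis, rose by 2.03 ± 0.32 (4.5e-05), 1 of 13 transcription factors. None of 10 genes of particle assembly and secretion and none of 6 receptors were called there, against the same 3.4% of all genes.

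In gut from day 0 to 7, where 2.6% of all genes were called in whole intestine and 10.6% in duodenum, SCARB1, a receptor for high density lipoprotein, rose by 2.82 ± 0.36 in whole intestine (6.59e-06) and 2.13 ± 0.32 in duodenum (4.06e-05), 1 of 5 receptors in the former, while in the latter 2 of 6 rose and 1 fell. The fatty acid carriers FABP4 (2.95 ± 0.23, 9.45e-09) and FABP3 (1.96 ± 0.25, 6.13e-06) rose in whole intestine, 2 of 8, and 0 of 8 were called in duodenum. None of 10 genes of particle assembly and secretion were called in either. In jejunum from day 35 to 42, where 1.74% of all genes were called, beside APOA4 the fatty acid receptor CD36 rose by 3.42 ± 0.48 (5.88e-06), SCARB1 by 2.95 ± 0.43 (1.07e-05) and CREB3L3 by 1.65 ± 0.39 (0.0123), while FABP6, a bile acid carrier of the ileum in mammals, fell by 3.95 ± 0.62 (3.75e-05).

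The same lists set liver and whole intestine apart at day 0. MOGAT2, which rebuilds triglyceride in absorptive cells, differed by -5.16 ± 0.21 (liver minus intestine, 1.14e-22) and RBP2, a retinol carrier, by -8.21 ± 0.21 (2.86e-29). Higher in liver were LCAT, which esterifies cholesterol on high density particles, by 6.34 ± 0.19 (3.87e-27), LIPC by 5.20 ± 0.28 (1.16e-18) and PON1, which travels on those particles, by 4.47 ± 0.29 (3.15e-16). In cecal epithelia against jejunum at day 14, the differences were -4.23 ± 0.18 for CREB3L3 (3.67e-11), -3.26 ± 0.27 for MOGAT2 (3.45e-08) and -3.54 ± 0.39 for SCARB1 (8.79e-07), and 5 of 10 genes of particle assembly and secretion were called, all lower, where 32.4% of all genes were called.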

How the data were processed

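Total RNA, extracted with Trizol per the labels, was labelled and hybridised to Affymetrix Chicken Genome arrays. The authors deposited 1 log2 intensity per probe set and array, made with Affymetrix Expression Console 1.1 per the submitters' processing notes; which normalization it applied is not stated in these sources. Values ran from 3.01 to 15.79, and array medians from 6.05 to 6.47 in the first run of sample numbers (251 arrays) and 5.99 to 6.18 in the second (152). The number of arrays limits precision.

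Of 38439 probe sets (96 controls apart), 27168 carried 1 symbol in the platform annotation, 177 several and 11094 none; those of several or no symbol were left aside. Groups came from sample titles. In the second run, free descriptions name other tissues or ages than the titles, 6 pectoralis arrays have conflicting ages, and 39 arrays correlated best with an array of another tissue label. Second-run muscle groups at day 21 and 28, whose arrays match across labels, entered no test of ages or tissues. They do count in the tissue means of pectoralis and gastrocnemius.

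Models had 1 mean per group (limma 3.58.1, R 4.3.3). A fit held all ages of a tissue in 1 run or, between tissues, the groups compared with further groups of related tissues or ages. All groups of a fit shared 1 spread per gene although their median SD could differ. The p-values of pairs with the larger SD can therefore be too small. A gene was tested if any group mean reached the 25th percentile of the fit's values. Liver day 56, brain day 21 and pectoralis day 21 shared the spread of their fits but entered no reported comparison of ages or tissues. The 8 genes and all lists were chosen with earlier results of these data known. Of 40 comparisons, 11 were added after seeing that control transcripts differed. The 40 are part of 119 that were computed, and adjusted p-values do not cover the choice among them. All members were named, up to 4 genes per other list by size of difference, and the 3 genes most correlated with each member. The fits were tested on simulated data with known changes, where larger changes were called more often than smaller ones. Replicate numbers paired lung at day 28 and 7 (correlations of deviations 0.445 to 0.714) and testes and ovary (0.106 to 0.484); the labels name no pairs. Alternatives were quantile normalization, median centring, no filter, all probe sets averaged, array weights, trend and robust moderation, labelled sex, a replicate block, only the groups compared, and each replicate left out. Plots used matplotlib 3.10.9 in Python 3.11.15.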

Additional observations from a re-analysis of the deposited data

Results flagged for a closer look

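Of 67 pairs of a member and a group of arrays examined, 5 held an array far from the others by Dixon's criterion, and chance gives about 1 in 20 groups. APOA2 had a high array in duodenum at day 7 (8.95, the others 7.63 to 7.70), a low array in duodenum at day 28 (6.82, the others 7.34 to 7.43) and a low array in liver at day 7 (13.32, the others 13.43 to 13.45). APOH had a high array in retina at day 9 (7.22, the others 5.72 to 5.88), and APOA4 a high array in liver at day 9 (13.41, the others 13.09 to 13.12).

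The change from day 0 to 7 differed between liver and whole intestine in the test of the difference itself for APOA2 (3.09), APOA5 (-2.50) and MTTP (-1.58), with liver minus intestine as the direction. The liver groups of these ages differed in control transcripts, and the part of that in the result was not tested.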

How the results depend on the processing

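Counts are of members called. Over all alternatives 493 counts stayed within 1.5 times, 20 went further up and 15 further down. A count of 0 that stayed 0 was taken as unchanged, so the 493 include comparisons with no call to lose. With all probe sets averaged, calls came to 2 in liver at day 9 against 7 and at day 49 against 9, 2 in duodenum at day 35 against 7, 1 in jejunum at day 42 against 1, 2 in duodenum against jejunum at day 14 and 4 in jejunum at day 42 against 35. Array weights gave 1 in duodenum at day 7 against 0, 3 in fat at day 49 against 10, 1 in testes against ovary, 0 in brain at day 9 against 0, 0 in whole intestine at day 1 against 0 and 2 in liver at day 3 against 1. Only the groups compared gave 3 in fat, 0 in brain at day 9 against 0 and 0 in whole intestine at day 7 against 3. Quantile normalization gave 0 in pectoralis and 1 in liver at day 9 against 1, and trend and robust moderation gave 1 in jejunum at day 42 against 1 and 2 at day 42 against 35. The cause was not tested.

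With each replicate left out in turn, counts ran from 1 to 2 in whole intestine at day 7 against 0, duodenum at day 35 against 7, duodenum against jejunum at day 14, pineal gland against brain and liver at day 9 against 1. They ran from 0 to 1 in ileum against jejunum, brain at day 42 against 0 and day 9 against 0, whole intestine at day 1 against 0 and day 7 against 3 and liver at day 3 against 1, and from 0 to 3 in fat. APOA1 in fat ran from -0.10 without replicate 2 to 1.08 without replicate 4. APOB turned sign in duodenum at day 35 against 7 (0.58), to -0.09 with quantile normalization and -2.05 with all probe sets averaged, and in liver against duodenum at day 7 (0.34), to -0.19 and -1.14.

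With the replicate block, the paired comparisons gave 0 members in lung and 2 in testes against ovary, as without it; among all genes the block moved 1 of 40 counts by over 1.5 times, growth plate from 0 to 41. Such shifts came in 16 comparisons with all probe sets averaged, 7 to 9 with a replicate left out (growth plate 0 to 192 without replicate 2), 5 with array weights, 1 with labelled sex and 3 each with quantile normalization and with only the groups compared (duodenum at day 7 against 0, 1340 to 312; brain at day 9 against 0, 258 to 3). Groups of 3 to 6 arrays and values near the low end of the scale limit what could be detected.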
